A study of Mus musculus with 24 samples.

Results

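The 10 genes described here are Duxf3 (Dux), Dppa2, Dppa4, Zfp352, Zfp750, Sp110, Spz1, Tcstv1, Tcstv3 and AF067061. They were taken by name from the 55291 gene rows of the RNA read count files and read in all 12 RNA libraries. Zygotes came from superovulated 8-week-old B6D2F1 (BDF1) females mated with males of the same cross, and the labels give the background strain of the embryos as BDF2. Antisense oligonucleotides (ASOs) were injected into the male pronucleus: an equal mix of 3 ASOs against MERVL, 20 µM in total, in the MERVL knockdown (MERVL-KD) embryos, and a scrambled ASO at 20 µM in the controls. Embryos were then cultured and collected at the 2-cell stage (labelled 1.5 days post-coitum) and at the 4-cell and 8-cell stages (both labelled 2.5 days). Each library was made from 30 zona-free embryos, with 2 biological replicates of each treatment at each stage, whose spread is what the p-values measure, so every value is a mean over blastomeres and embryos. The chromatin accessibility samples of the series were not analysed here.

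DUX is a double homeobox transcription factor that is present for a short time around zygotic genome activation, binds the long terminal repeats (LTRs) of MERVL and, when forced on in embryonic stem cells, turns on MERVL and many genes of the 2-cell embryo. DPPA2 and DPPA4 are chromatin proteins that pair with each other, are supplied by the oocyte and then made by the embryo, and act upstream of Dux in embryonic stem cells. The other 7 genes are used as marks of the 2-cell state: Zfp352 and Zfp750 code for zinc finger proteins, Sp110 for a nuclear body protein of the SP100 family, Spz1 for a leucine zipper transcription factor described in testis, and Tcstv1, Tcstv3 and AF067061 for members of the 2-cell-stage variable group. MERVL itself is an endogenous retrovirus whose LTR (MT2_Mm) serves as a promoter in 2-cell embryos.

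Libraries held 28167085 to 41482526 counts, of which 15.8% to 25.2% fell in repeat families. The internal sequence of MERVL (MERVL-int) took 6.33% to 6.57% of counts in control 2-cell libraries and 0.143% to 0.157% in MERVL-KD, and was lower by 5.72, 5.53 and 5.40 on the log2 scale at the 2-, 4- and 8-cell stages. Replicates differed by more than sampling noise in all 6 groups (chi-square per degree of freedom 10.4 to 17.7). Defining cumulus cell markers were near 0 (9 genes, 2.05 to 7.66 CPM in sum, with Star the most abundant; CPM gives each count relative to the total of its library). Oocyte markers (6 genes) summed to 1150 to 1229 CPM in control and 741 to 836 CPM in MERVL-KD 2-cell embryos, and to between 97.2 and 126 CPM in every later library. Of the 6 oocyte genes, Bmp15 (up to 615 CPM) and Oosp1 (up to 341 CPM) reached the highest levels. Markers of later stages (7 genes) summed to 81.7 to 92.2 CPM in control and 104 to 109 CPM in MERVL-KD 2-cell embryos. Klf5 was by far the most abundant of the 7 (63.1 to 535 CPM over the 12 libraries). Sox2 (up to 6.19 CPM) and Id2 (up to 12.1 CPM) were highest at the 2-cell stage, so they did not mark later stages here. Levels below are CPM scaled with TMM factors over the 12 libraries, that is, shares of the sequenced RNA; in such bulk samples fewer expressing cells and less RNA per cell cannot be told apart.

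Several of the 10 genes belong to families of near-identical copies, and only reads with a single alignment were counted. The share of each gene's exonic 32-base words found once shows how repeated its sequence is. It is not the share that could be counted, since the paired reads were longer than these words. In GRCm38, the build of the files, all 3139 exonic 32-base words of Zfp750 (chr11:121510978-121519333, minus strand, 3 exons) and all 1506 of Spz1 (chr13:92574636-92576172, minus strand, 1 exon) were found once. For Zfp352 (chr4:90218820-90225702, plus strand, 2 exons) the share was 74.7%. The share was 46.7% for Dppa2 (chr16:48303908-48319723) and 39.3% for Dppa4 (chr16:48283733-48294237), which lie 9670 bases apart on the plus strand. It was lower still for Duxf3 (23.9%, chr10:58229979-58232675, minus strand, 1 exon) and Sp110 (15.1%, chr1:85576899-85598817, minus strand, 13 exons). Of Duxf3's distinct words, 41.7% also occur in AW822073 and 24.8% in Gm10807, both on the same chromosome. Of Sp110's, 35.7% also occur in Gm16026. One other gene, G530012D18Rik on the opposite strand, overlaps exons of Sp110. Of Dppa2's distinct words, 25.9% also occur in Gm9788, and of Dppa4's, 26.2% in Gm14058. Counts of all genes here but Zfp750 and Spz1 could therefore lack reads from parts shared with other copies, to an extent that was not measured.

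**Figure D1:**
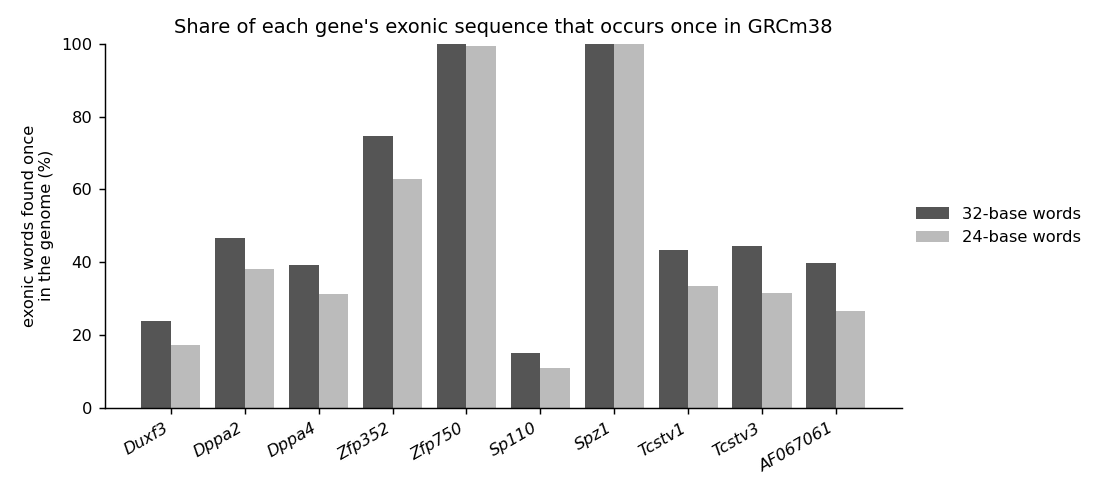
Share of each gene's exonic words of 32 bases (dark bars) and 24 bases (light bars) that occur once in the GRCm38 chromosomes and unplaced contigs, in percent. Zfp750 and Spz1 stand at or near 100%, and Sp110 and Duxf3 are the lowest, at 15.1% and 23.9% for 32 bases.

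Tcstv1 (chr13:119893388-119894785, minus strand), AF067061 (chr13:120263114-120264517, plus strand) and Tcstv3 (chr13:120316878-120318178, plus strand) lie within one stretch of chromosome 13. Their coding sequences in the RefSeq annotation are 516, 516 and 510 bases long and identical at 95.3% (Tcstv1 and AF067061), 94.7% (Tcstv1 and Tcstv3) and 95.9% (Tcstv3 and AF067061) of aligned bases. Between 39.8% and 44.5% of their exonic 32-base words were found once. The first 60 coding bases, from GRCm38 and in coding orientation, are shown because they make plain how close the 3 genes are; capitals mark the 2 positions that are not the same in all 3.
Tcstv1: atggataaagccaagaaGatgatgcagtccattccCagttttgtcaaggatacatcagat
Tcstv3: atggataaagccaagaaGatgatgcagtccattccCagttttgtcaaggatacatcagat
AF067061: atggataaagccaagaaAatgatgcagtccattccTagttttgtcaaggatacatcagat
Tcstv1 and Tcstv3 share this stretch in full, and AF067061 differs from both at the 2 marked positions. A read would have to reach beyond this stretch, itself or through its mate, to be assigned to Tcstv1 or Tcstv3 alone.

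RefSeq's table of promoters (GRCm38.p6, 250 bases before to 50 after each start) held 6 windows for 5 of the 10 genes: Duxf3, Zfp352, Spz1, AF067061 and, with 2 starts, Sp110. Dppa2, Dppa4, Zfp750, Tcstv1 and Tcstv3 had no entry. The windows of the 3 genes that were at least 2-fold lower in MERVL-KD at some stage are printed here, each in transcript orientation with its start after base 250. The upstream start of Sp110 (chr1:85603842-85604141, minus strand) lies 5 kb before the counted Sp110 row and the downstream one (chr1:85598761-85599060) at its 5′ end. Zfp352 is at chr4:90218570-90218869 (plus strand) and AF067061 at chr13:120262845-120263144 (plus strand). Capitals mark the words ATATAAG and CCTTTAAT, which were chosen after the letters were seen.
Sp110, upstream start: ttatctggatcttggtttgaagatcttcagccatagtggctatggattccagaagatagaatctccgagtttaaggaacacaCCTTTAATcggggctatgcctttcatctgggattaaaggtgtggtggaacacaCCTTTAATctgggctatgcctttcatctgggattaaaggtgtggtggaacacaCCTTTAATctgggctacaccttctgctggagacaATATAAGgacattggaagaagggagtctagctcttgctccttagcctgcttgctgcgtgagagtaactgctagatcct
Sp110, downstream start: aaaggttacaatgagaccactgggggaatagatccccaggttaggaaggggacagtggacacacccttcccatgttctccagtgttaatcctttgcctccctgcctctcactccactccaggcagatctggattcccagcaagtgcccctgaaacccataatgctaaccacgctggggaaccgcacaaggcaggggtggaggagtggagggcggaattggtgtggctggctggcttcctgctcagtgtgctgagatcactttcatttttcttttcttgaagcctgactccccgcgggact
Zfp352: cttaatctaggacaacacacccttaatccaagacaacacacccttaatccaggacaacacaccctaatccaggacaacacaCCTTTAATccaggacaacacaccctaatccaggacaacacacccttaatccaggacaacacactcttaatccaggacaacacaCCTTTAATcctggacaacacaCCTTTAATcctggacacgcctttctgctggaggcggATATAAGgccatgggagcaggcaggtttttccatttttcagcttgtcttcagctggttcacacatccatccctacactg
AF067061: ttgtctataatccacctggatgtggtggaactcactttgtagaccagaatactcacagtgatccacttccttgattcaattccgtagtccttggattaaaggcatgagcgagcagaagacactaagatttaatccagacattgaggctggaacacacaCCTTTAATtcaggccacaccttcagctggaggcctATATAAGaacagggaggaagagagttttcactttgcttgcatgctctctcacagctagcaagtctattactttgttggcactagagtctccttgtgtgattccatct
The word ATATAAG stood once in the Sp110 upstream, Zfp352 and AF067061 windows, ending 21, 22 and 50 bases before the start, and in none of the Sp110 downstream, Duxf3 and Spz1 windows. Over both strands it occurs in 2.52% of all 32851 windows. CCTTTAAT occurs in the same 3 windows (3, 3 and 1 times on the printed strand, and 2, 0 and 1 times on the other) and in 1.25% of all windows. The spacing of the words from the start was similar in Sp110 and Zfp352, and longer in AF067061.

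The whole upstream window of Sp110 (300 of 300 bases) matched the LTR end of MERVL. The 399 bases at the 5′ end of the study's MERVL consensus aligned at 90.9% to 97.3% identity across chr1:85603838-85604244, on the strand of Sp110, and the upstream start falls inside. Only 29 of 32851 RefSeq starts (0.0883%) lie within such a match. Within 10 kb of the start of a counted row, matches of at least 100 bases and 80% identity stood near 2 of the 10 genes, Sp110 (5021 bases upstream) and Spz1 (6376 bases upstream, same strand, 96.5% identity), against 2.26% of all gene rows. The nearest match lay 17952 bases from AF067061, 23578 from Tcstv1, 35413 from Tcstv3, 41478 from Zfp352 and over 100 kb from Duxf3, Dppa2, Dppa4 and Zfp750. None of the 10 counted rows held a match between its ends. The query was the LTR end only, so internal MERVL sequence was not searched for. No counted row held a site for a MERVL ASO with 2 or fewer mismatches over 20 bases, and the closest site on a transcript strand had 4. The stretch between the upstream Sp110 start and the counted Sp110 row was not searched for ASO sites. The motif TGATTNNATCA, the core of published DUX sites, was searched on both strands from 2000 bases before to 100 bases after the start of each counted row; it occurred in none of these 10 windows, and in 1.69% of all 55291.

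In control 2-cell embryos, levels per kb of exon length spanned 2 orders of magnitude. Sp110 was the highest at 156 and 174 CPM per kb in the 2 replicates, and Duxf3 the lowest at 1.63 and 0.868. Between them came Tcstv3 (mean 93.8) and Zfp352 (92.6), whose replicates overlapped, then Dppa2 (67.5), then Dppa4 (46.7) and Spz1 (44.4), which overlapped, then AF067061 (31.1) and Tcstv1 (27.9), which overlapped, and Zfp750 (10.3). In control 8-cell embryos the order was another: Dppa2 (298), Sp110 (254) and Dppa4 (95.4) led, and the other 7 genes lay at or below 6.58 CPM per kb. These levels are per kb of full exon length and were not scaled for reads lost to other copies. Of 32-base words, 46.7% were found once for Dppa2 and 15.1% for Sp110. The order of these 2 genes is that of their counted reads only. The label of 2-cell marker held for Zfp352, Zfp750, Spz1, Tcstv1, Tcstv3 and AF067061, which like Duxf3 peaked at the 2-cell stage. It did not hold for Sp110, which was higher at later stages, as were Dppa2 and Dppa4.

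**Figure D2:**
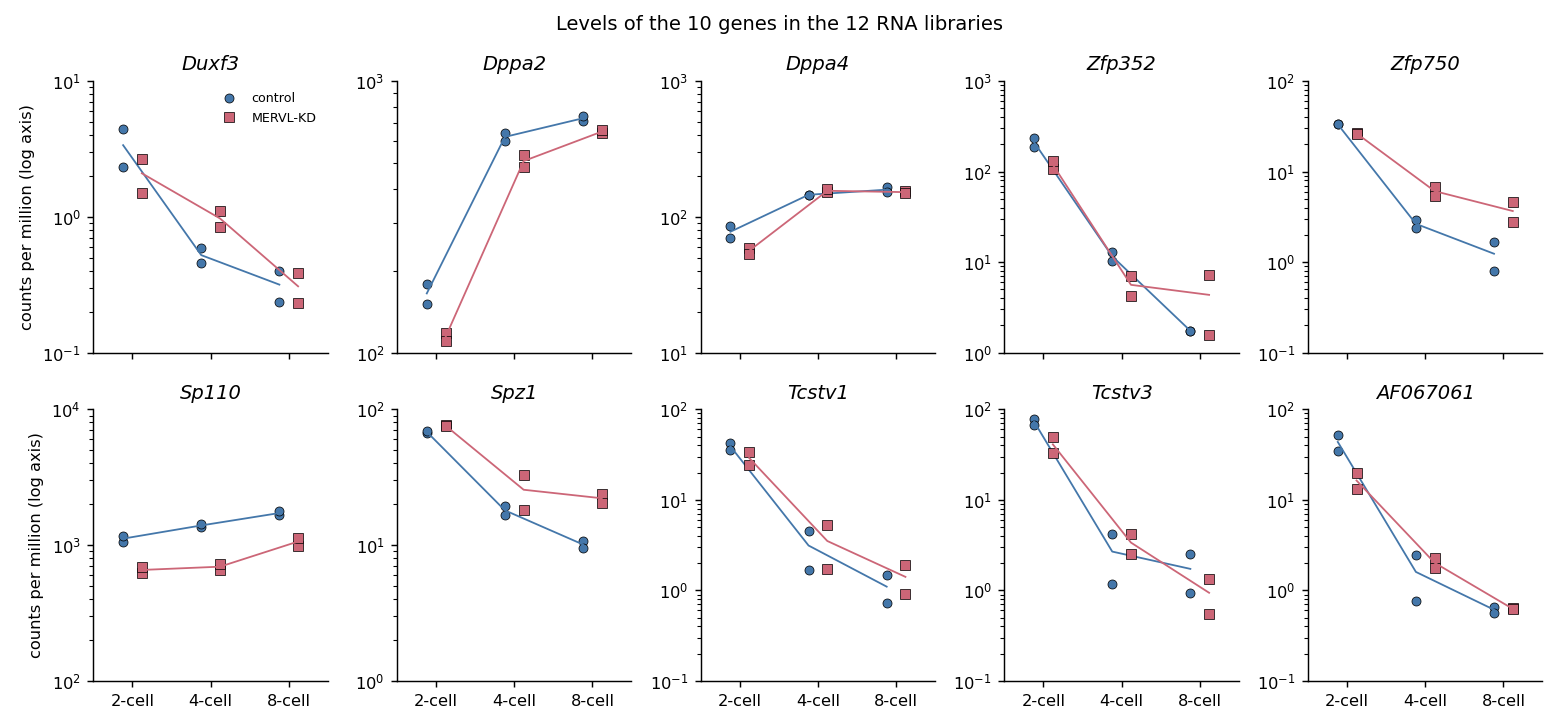
Level of each gene in every RNA library, in CPM on a log axis whose range differs between panels, by stage. Circles are control and squares MERVL-KD libraries (2 each), and lines join the means; 7 genes fall after the 2-cell stage, Dppa2, Dppa4 and Sp110 do not, and the Sp110 squares lie below the circles at all 3 stages.

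From the 2-cell to the 4-cell stage in control embryos, 7 of the 10 genes fell and Dppa2 rose past both thresholds (edgeR quasi-likelihood test on all 12 libraries, Benjamini-Hochberg adjusted p under 0.05 and at least 2-fold, which is what "called" means below). Of all genes, 24.3% were called lower and 20.7% higher over the same step. Tcstv3 (log2 fold change -4.80, SE 0.68) and AF067061 (-4.80, SE 0.40) fell to 3.67% and 3.66% of their 2-cell level. Leaving out control 4-cell replicate 1 or 2 moved Tcstv3 to -4.12 or -5.98 and AF067061 to -4.17 or -5.83. Zfp352 fell by 4.19 (SE 0.58), Tcstv1 by 3.66 (SE 0.65), Zfp750 by 3.65 (SE 0.28), Duxf3 by 2.69 (SE 0.57, adjusted p = 0.00041) and Spz1 with a log2 fold change of -1.92 (SE 0.20). Dppa2 rose by 1.91 (SE 0.10), to 377% of its 2-cell level. Dppa4 (0.90, SE 0.11) and Sp110 (0.32, SE 0.09) were higher with adjusted p of 3.67e-07 and 0.00635 but under 2-fold; Dppa4 was also called with library size scaling (1.08) and without control 2-cell replicate 2 (1.07). The 2 partners DPPA2 and DPPA4 thus differed in the size of the step at the RNA level, by 1.91 against 0.90.

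The same step in MERVL-KD embryos had 6 genes called lower and 2 called higher, against 23.0% and 21.2% of all genes. Dppa2 (2.15, SE 0.10) and Dppa4 (1.47, SE 0.11) rose. Zfp352 fell by 4.40, Tcstv3 by 3.60, Tcstv1 by 3.04, AF067061 by 3.02, Zfp750 by 2.12 and Spz1 by 1.57. Duxf3 was lower by 1.10 (SE 0.54, adjusted p = 0.0912) and stood at 46.5% of its 2-cell level, against 15.5% in control. This step of Duxf3 did not differ detectably between treatments (difference 1.59, SE 0.77, interaction contrast, adjusted p = 0.298). From the 4-cell to the 8-cell stage little more was called. In control embryos only Zfp750 was called lower (-1.11, SE 0.31, adjusted p = 0.0375), where 1.09% of all genes were called lower and 0.474% higher. Leaving out 1 library ended that call for control 4-cell replicate 1 (-0.96), control 4-cell replicate 2 (-1.23) and control 8-cell replicate 2 (-0.68), and DESeq2 also called Zfp352 and AF067061 lower. In MERVL-KD embryos only AF067061 was called lower (-1.69, SE 0.45, adjusted p = 0.0435), where 1.31% of all genes were called lower and 0.333% higher. Leaving out either 4-cell or either 8-cell MERVL-KD library, or either control 8-cell library, ended that call.

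**Figure D3:**
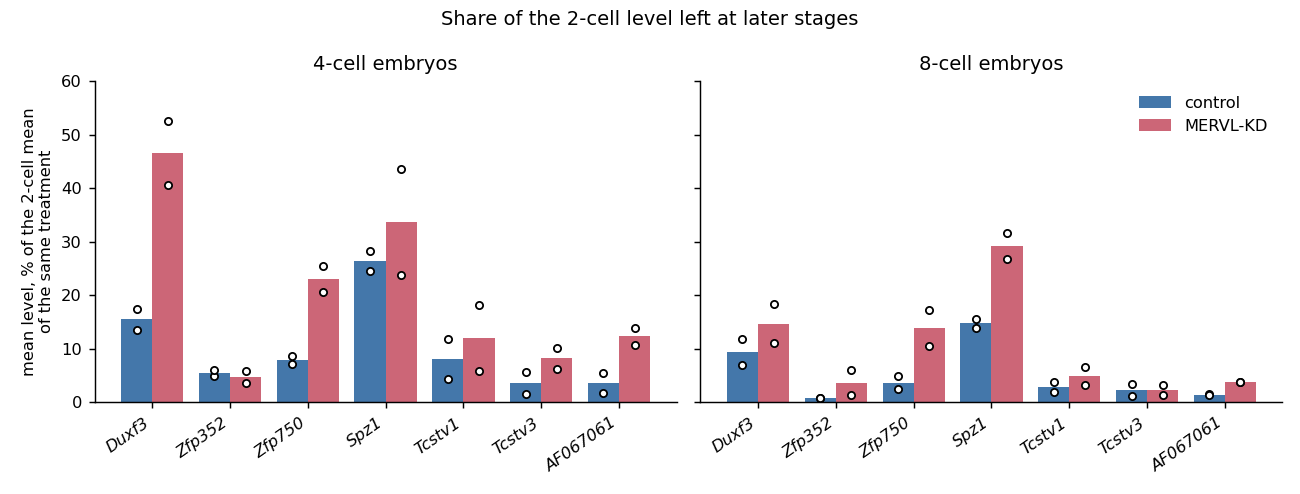
Mean level at the 4-cell (left) and 8-cell (right) stage as a percentage of the 2-cell mean of the same treatment, for the 7 genes that fell in control embryos. Bars are means of 2 libraries and open points the libraries; at the 4-cell stage Duxf3 stood at 15.5% in control and 46.5% in MERVL-KD, and Zfp750 at 7.95% and 23.0%.

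Against control, MERVL-KD 2-cell embryos had lower levels of most of the 10 genes. AF067061 was called lower, and 5 others (Dppa2, Dppa4, Zfp352, Sp110 and Tcstv3) fell with adjusted p under 0.05 but by less than 2-fold. In the fit to all 12 libraries 4 of these 6 passed, without Zfp352 (adjusted p = 0.462) and Tcstv3 (adjusted p = 0.506). Of all 20604 genes tested at this stage, 2.24% were called lower and 4.37% higher, and 7.39% were lower and 6.70% higher on adjusted p alone. The median log2 fold change was -0.53 over the 10 genes and 0.014 over all genes. The replicates did not overlap for 8 genes lower in MERVL-KD and 1 higher (Spz1), where 33.7% and 23.8% of all genes were so placed.

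Among the factors that act first, Duxf3 was weakly detected, with 138 and 85 counts in control and 63 and 95 in MERVL-KD. These were 4.40 and 2.34 CPM in control against 1.50 and 2.69 CPM in MERVL-KD. The groups overlapped, and the log2 fold change of -0.61 (SE 0.38, adjusted p = 0.339) moved between -1.09 and -0.088 when single libraries were left out, so a difference was not detectable at this depth. Dppa2 stood at 151 and 179 CPM in control and at 118 and 110 CPM in MERVL-KD. It fell by 0.45 (SE 0.10, adjusted p = 0.00535). Dppa4 was at 69.5 and 85.8 CPM in control and 59.1 and 53.4 CPM in MERVL-KD, and fell by 0.38 (SE 0.12, adjusted p = 0.0385). Both MERVL-KD libraries were below both control libraries for the pair, by steps of similar size.

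Among the 2-cell markers, AF067061 was at 52.6 and 34.7 CPM in control and at 13.1 and 19.7 CPM in MERVL-KD. It fell by 1.34 (SE 0.22, adjusted p = 0.0014), or 2.53-fold. Its neighbour Tcstv3 was at 79.1 and 67.0 CPM in control and at 32.7 and 49.3 CPM in MERVL-KD, and fell by 0.75 (SE 0.16, adjusted p = 0.00722). Without MERVL-KD replicate 2 the value was -1.08 and Tcstv3 was also called. Tcstv1 was at 42.2 and 35.6 CPM in control against 24.1 and 34.0 CPM (-0.34, SE 0.16, adjusted p = 0.18). Summed over the 3 genes, the level was 174 and 137 CPM in control and 69.9 and 103 CPM in MERVL-KD. Reads that fit several copies were not counted in any row, so the sum does not hold them. All 4 MERVL-KD values of AF067061 and Tcstv3 lay below the control values of the same gene.

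Zfp352 was at 235 and 186 CPM in control and 107 and 131 CPM in MERVL-KD, and fell by 0.74 (SE 0.12, adjusted p = 0.000938). Sp110 was at 1056 and 1177 CPM in control and 624 and 689 CPM in MERVL-KD, and fell by 0.68 (SE 0.08, adjusted p = 2.85e-05). These 2 genes, like AF067061, had both MERVL-KD libraries below both control libraries. So had Zfp750, at 33.4 and 33.2 CPM against 26.6 and 26.2 CPM (-0.25, SE 0.13, adjusted p = 0.225). Spz1 was the one gene on the other side, at 67.2 and 69.3 CPM in control and 76.8 and 75.0 CPM in MERVL-KD (0.24, SE 0.10, adjusted p = 0.133). The sum of the oocyte markers, with Bmp15 and Oosp1 the most abundant, was also lower in these MERVL-KD libraries. The part of these markers in the result was not tested. With library size in place of TMM, which put the median of all genes at 0.30, 3 of the 10 genes (Zfp352, Sp110 and AF067061) were lower and 1, Spz1, higher on adjusted p, while Dppa2, Dppa4 and Tcstv3 were at adjusted p of 0.238, 0.614 and 0.0523.

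**Figure D4:**
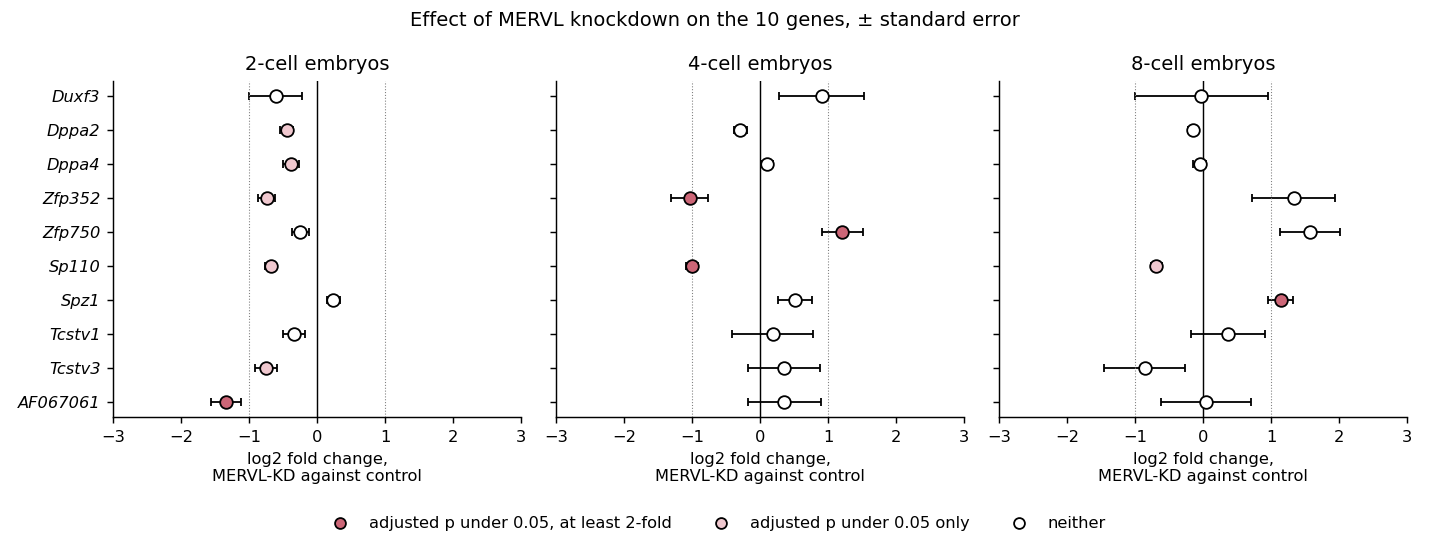
Log2 fold change of MERVL-KD against control for each gene at the 2-, 4- and 8-cell stage, with bars for the standard error of the fit (2 libraries per group). Dark points passed adjusted p under 0.05 and 2-fold, light points adjusted p only and open points neither; dotted lines mark 2-fold, which AF067061 passed at the 2-cell, Zfp352, Zfp750 and Sp110 at the 4-cell and Spz1 at the 8-cell stage.

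In MERVL-KD 4-cell embryos Zfp352 and Sp110 were called lower and Zfp750 was called higher, and no other gene of the 10 passed the adjusted p. Of all 19738 genes tested, 1.88% were called lower and 2.66% higher, and 5.84% were lower and 4.92% higher on adjusted p alone. The median was 0.27 over the 10 genes and 0.025 over all genes. Leaving out control replicate 1 or 2 moved the median over the 10 genes to -0.29 or 0.73. Leaving out MERVL-KD replicate 1 or 2 moved it to -0.035 or 0.60, so its sign hung on single libraries. The groups did not overlap for 3 genes below (Dppa2, Zfp352, Sp110) and 3 above (Duxf3, Dppa4, Zfp750), where 26.4% and 28.0% of all genes were so placed.

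Sp110 was at 1351 and 1441 CPM in control and 661 and 727 CPM in MERVL-KD 4-cell embryos. It fell by 1.00 (SE 0.09, adjusted p = 2.46e-05), a 2.00-fold step that sits on the threshold. Over the alternatives run its adjusted p stayed at or below 0.000118, whereas the fold dropped just under 2-fold without control replicate 2 (-0.97), without MERVL-KD replicate 1 (-0.94), with library size scaling (-0.94), with a stricter count filter (-0.99) and with halved counts. Zfp352 had by then fallen to 10.3 and 12.9 CPM in control, and was at 6.98 and 4.24 CPM in MERVL-KD (-1.04, SE 0.27, adjusted p = 0.0317). Without control replicate 2 it was at -0.88 (adjusted p = 0.08) and without MERVL-KD replicate 2 at -0.72 (adjusted p = 0.105), and its call was also lost with library size scaling and in the fit to all 12 libraries (adjusted p = 0.0584 and 0.366).

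Zfp750 was at 2.89 and 2.40 CPM in control and at 6.73 and 5.43 CPM in MERVL-KD 4-cell embryos, on the opposite side from its 2-cell values. It rose by 1.20 (SE 0.30, adjusted p = 0.0261), or 2.30-fold. Without control replicate 2 the value was 1.07 (adjusted p = 0.0877) and without MERVL-KD replicate 1 it was 1.03 (adjusted p = 0.104). The 10 genes thus held no call without control replicate 2, and 1 (Zfp352) without MERVL-KD replicate 1.

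Duxf3 was at 0.454 and 0.591 CPM in control (16 and 17 counts) and at 1.10 and 0.847 CPM in MERVL-KD (40 and 29 counts). Its log2 fold change was 0.90 (SE 0.62, adjusted p = 0.417). Dppa2 was at 603 and 642 CPM in control against 532 and 483 CPM (-0.29, SE 0.09, adjusted p = 0.0608), and Dppa4 at 145 and 146 CPM against 152 and 159 CPM (0.10, SE 0.09, adjusted p = 0.556). The partners lay on opposite sides of control at this stage, and neither passed the adjusted p in the main fit. Over the main fit and 9 other ways of processing, the adjusted p of Dppa2 ranged from 0.0313 to 0.178. Spz1 was at 19.3 and 16.7 CPM in control and at 33.1 and 18.1 CPM in MERVL-KD (0.51, SE 0.25, adjusted p = 0.252). Tcstv1, Tcstv3 and AF067061 were between 0.766 and 5.30 CPM in the 4 libraries, with overlapping groups and log2 fold changes of 0.19, 0.35 and 0.35 whose sign turned when control replicate 1 was left out.

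In MERVL-KD 8-cell embryos Spz1 was called higher, and Sp110 fell by less than 2-fold. Of all 18414 genes tested, 0.641% were called higher and 1.06% lower, and 1.50% were higher and 3.56% lower on adjusted p alone. The medians were 0.008 over the 10 genes and 0.0057 over all genes. Groups did not overlap for Spz1 and Zfp750 above and for Dppa2 and Sp110 below, where 23.6% and 25.9% of all genes were so placed.

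Spz1 was at 10.7 and 9.55 CPM in control and at 23.98 and 20.3 CPM in MERVL-KD 8-cell embryos. It rose by 1.14 (SE 0.18, adjusted p = 0.00375), or 2.20-fold, and leaving out single libraries moved the value between 1.01 and 1.25 without ending the call. Sp110 was at 1674 and 1772 CPM in control and 988 and 1138 CPM in MERVL-KD (-0.69, SE 0.08, adjusted p = 0.00047). It was the gene of the 10 that was lower on adjusted p at all 3 stages.

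Zfp750 was at 1.67 and 0.804 CPM in control and at 4.56 and 2.77 CPM in MERVL-KD 8-cell embryos. The log2 fold change of 1.58 (SE 0.44) missed the threshold (adjusted p = 0.0633), and 7 of 9 other ways of processing put it past, with adjusted p from 0.00314 to 0.0488. Leaving out control replicate 1 (2.20) or MERVL-KD replicate 2 (1.89) did the same. Zfp352 was at 1.74 and 1.74 CPM in control and at 1.56 and 7.13 CPM in MERVL-KD, so that 1 library set its log2 fold change of 1.33 (SE 0.61, adjusted p = 0.277). The value was 2.04 without MERVL-KD replicate 1 and -0.15 without MERVL-KD replicate 2.

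Dppa2 (714 and 745 CPM in control, 641 and 661 CPM in MERVL-KD, -0.16, SE 0.07, adjusted p = 0.274) and Dppa4 (165 and 152 CPM against 155 and 149 CPM, -0.05, SE 0.09) were near their control levels at the 8-cell stage. Duxf3 was at 7 to 15 counts in each of the 4 libraries, and Tcstv1, Tcstv3 and AF067061 were between 0.548 and 2.51 CPM. No difference was detectable for these 4 at this depth.

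The effect of MERVL-KD differed between the 2-cell and 4-cell stage for 2 of the 10 genes by the interaction contrast of the 12-library fit, where 4.16% of all genes passed. In that fit Zfp750 went from -0.33 to 1.20, a difference of 1.53 (SE 0.36, adjusted p = 0.018). Dppa4 went from -0.47 to 0.098 in the same fit, a difference of 0.56 (SE 0.15, adjusted p = 0.0423). Between the 2-cell and 8-cell stage the difference passed for Zfp750 alone (1.90, SE 0.39, adjusted p = 0.00615), where 4.03% of all genes passed. For AF067061 the difference of 1.78 (SE 0.52) between 2-cell and 4-cell missed the threshold (adjusted p = 0.0712). It passed with DESeq2 (adjusted p = 0.0104), with genes of at least 1 count (0.000128), with halved counts (0.0396) and without control 4-cell replicate 2 (2.81, 0.000496). For Spz1 the difference of 0.98 (SE 0.28) between 2-cell and 8-cell also missed it (adjusted p = 0.0638). That one passed with DESeq2 (adjusted p = 0.0202), with genes of at least 1 count (0.00126) and without either MERVL-KD 4-cell library. The difference for Duxf3 between 2-cell and 4-cell was 1.59 (SE 0.77, adjusted p = 0.298). Leaving out 1 of the 12 libraries ended the call of Dppa4 for 10 libraries, all but control 2-cell replicate 1 and MERVL-KD 8-cell replicate 1, and so did library size scaling (0.25) and both other count filters (adjusted p = 0.0583 and 0.0527). It ended the 2-cell to 4-cell call of Zfp750 for 4 libraries (control 2-cell replicate 2, either MERVL-KD 2-cell library or control 4-cell replicate 2, adjusted p from 0.0509 to 0.0609), as did library size scaling (adjusted p = 0.0531, where Sp110 passed instead with a difference of -0.55), and its 2-cell to 8-cell call for control 8-cell replicate 2 (1.40, adjusted p = 0.0565).

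Genes reported to act on Dux or on the 2-cell programme were read from a list of 32, of which 29 were in the files and 27 tested; Duxf1, Duxf2 and Duxf4 had no row. At the 2-cell stage 4 fell, all by less than 2-fold: Nelfa, a maternal activator of Dux (-0.49), Zmym2 (-0.46), Setdb1, a histone H3K9 methyltransferase (-0.36), and Chaf1a, a subunit of the histone chaperone CAF-1 (-0.43). Smchd1, a repressor of Dux, rose by 0.27 (adjusted p = 0.0489), close to the threshold. At this stage no gene of the list was higher on adjusted p with DESeq2 or with its size factors. The same held for the fit to all 12 libraries, the replicate block, the non-robust fit and genes of at least 1 count. With halved counts and with the stricter count filter 1 gene of the list was higher. The median over the list was -0.05, and of all genes 7.39% were lower and 6.70% higher by the same rule. At the 4-cell stage Trp53 (-0.61), Trim28 (-0.33), Chaf1a (-0.54) and Pias4 (-0.48) fell and Smchd1 (0.35) rose, against 5.84% and 4.92% of all genes. This rise of Smchd1 did not pass in the fit to all 12 libraries or with the replicate block. At the 8-cell stage Nelfa (-0.65), Trim28 (-0.57) and Pias4 (-0.42) fell, against 3.56% of all genes. With library size scaling the 4 no longer passed at the 2-cell stage, 9 of the 27 were higher on adjusted p, and the list's median was 0.24 where that of all genes was 0.30.

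A second list held 33 other genes of the 2-cell embryo, outside the Zscan4, Tdpoz and Usp17l families. Of the 29 tested at the 2-cell stage 14 fell and 1 (Chit1, 0.76) rose on adjusted p, with a median of -0.44, where 7.39% and 6.70% of all genes did so. The 14 became 7 of 30 in the fit to all 12 libraries, 9 of 32 without MERVL-KD replicate 1 and 18 of 31 without MERVL-KD replicate 2. Gm20767 was called lower (-1.10, SE 0.18, adjusted p = 0.000814), a call that was lost with library size scaling, in the fit to all 12 libraries and without MERVL-KD replicate 1. Gm20767 shares 19.5% of AF067061's 32-base words and lies on the same chromosome. Mbd3l2 (-0.77), Lmx1a (-0.78), Gm5662 (-0.75), B020004J07Rik (-0.65) and Trim43b (-0.53) were among the 14. At the 4-cell stage 4 of 26 fell and 1 (Ddit4l, 0.70) rose, and at the 8-cell stage 4 of 23 fell, beside 5.84%, 4.92% and 3.56% of all genes. Lmx1a, a LIM homeobox gene, was called lower at both (-2.26 and -3.26). Its 8-cell call was lost with DESeq2 and with at least 10 counts in every library. It had 4.45 and 5.28 CPM in control against 1.59 and 0.409 CPM in MERVL-KD 4-cell embryos. With library size scaling, 5 of the 29 were lower and 1 higher at the 2-cell stage, and the median was -0.15.

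Genes whose log2 level over the 12 libraries followed that of a member were ranked by Pearson's r over 14727 genes with a mean of at least 1 CPM. The points share 6 groups of 2 libraries, so that r mainly describes the course over stages. For Sp110 the most alike gene was Gm15753 (r = 0.988), which holds 7.16% of Sp110's 32-base words, followed by Sos2 (0.957). For Duxf3 the 3 most alike were Pdzk1 (0.974), Ldlrad3 (0.969) and Limk1 (0.964), and for Zfp352 Ppargc1b (0.985). For Dppa2 they were Ipo5, Nup85 and Wdr43 (0.998, 0.998 and 0.997) and for Dppa4 Nudt3 (0.993). For AF067061 the gene was BC147527 (0.988), for Tcstv1 Gm9030 (0.991), for Tcstv3 Cntn1 (0.987), for Zfp750 Srek1ip1 (0.988) and for Spz1 Svip (0.987). Ranked by Spearman's rho instead, 1 of the 3 named genes was kept for Sp110, Tcstv1 and Tcstv3 and none for the other members.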

How the data were processed

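RNA was measured by strand-specific total RNA sequencing in 12 libraries of pooled embryos. The authors aligned reads to GRCm38/mm10 with STAR 2.5.3a, kept uniquely aligned reads and deposited featureCounts counts for GENCODE vM25 genes and RepeatMasker families; the strand setting and the counting of read pairs are not given in the sources used here. Of low counts, 71.8% to 74.7% were even, so halved counts were an alternative. The 10 genes, the lists and the motifs were chosen with earlier results of these data known.

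MERVL-KD was compared with control within each stage (4 libraries) by edgeR 4.0.16 in R 4.3.3 (quasi-likelihood test, robust fit, TMM, filterByExpr, repeat rows included). Stages and differences of the MERVL-KD effect came from one fit to all 12 libraries. A gene was called at a Benjamini-Hochberg adjusted p under 0.05 and at least 2-fold; differences of effects needed the adjusted p alone. P-values were adjusted over genes and repeat families together. The test was also run on simulated counts, and the outcome of that run is not given here. Named genes were the 10 members, list genes past the adjusted p and the 3 genes most alike each member. Alternatives were DESeq2 1.42.0 and its size factors, library size, other count filters, a replicate block, halved counts, a non-robust fit and leaving out each library. Counts of list genes per setting were added after seeing the data. Sequence work used Biopython 1.88 and BLAST+ 2.17.0 on RefSeq GRCm38.p6, with 399 bases of the study's MERVL consensus. The chromatin accessibility samples were not analysed here.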

Additional observations from a re-analysis of the deposited data

Results flagged for a closer look

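The MERVL-KD effect differed between stages for Zfp750 and Dppa4 by the interaction contrast of the 12-library edgeR fit. For Zfp750 the difference of log2 fold changes was 1.53 between the 2-cell and 4-cell stage and 1.90 between the 2-cell and 8-cell stage. For Dppa4 it was 0.56 between the 2-cell and 4-cell stage. With library size scaling neither 4-cell minus 2-cell difference passed (1.23 for Zfp750 and 0.25 for Dppa4). The Dppa4 difference was also lost with both other count filters and without most single libraries, as given above. Zfp750 levels were lower in both MERVL-KD libraries than in both control libraries at the 2-cell stage, as for 33.7% of all genes. They were higher in both at the later stages, as for 28.0% (4-cell) and 23.6% (8-cell) of all genes. The 2-cell value of Zfp750 did not pass in the edgeR test of that stage (-0.25, adjusted p = 0.225). With library size scaling it was 0.038. Groups of 2 libraries are too small to test single libraries as outliers.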

How the results depend on the processing

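Among the MERVL-KD comparisons of single members, 250 of 267 values under another setting kept their direction and side of the threshold and 4 changed sign. Without 1 library 96 of 120 kept both and 14 changed sign. For stages and differences of effects 387 of 414 and 666 of 720 kept both. The cause of a change was not tested.

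The number of members called in MERVL-KD 2-cell embryos was 6 with no fold threshold and at the 4-cell stage 1 with library size. At the 8-cell stage it was 3 with genes of at least 1 count, and 2 with DESeq2, library size, at least 10 counts in every library, all 12 libraries, halved counts or no fold threshold. From control 4-cell to 8-cell it was 3 with DESeq2 or library size and 2 with either count filter. For the difference between 4-cell and 2-cell effects it was 1 with library size (Sp110, in place of Dppa4 and Zfp750) and 1 with at least 10 counts (Zfp750), and with at least 1 count AF067061 passed in place of Dppa4; for that between 8-cell and 2-cell 2 with DESeq2 and 3 with at least 1 count.

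Library size turned Zfp750 at the 2-cell stage (0.038), Duxf3 (0.0952) and Dppa4 (0.0772) at the 8-cell stage, Dppa4 from control 4-cell to 8-cell (-0.0798), Sp110 from MERVL-KD 2-cell to 4-cell (-0.0557), and the differences of Dppa2 (-0.0658, 4-cell minus 2-cell) and Sp110 (-0.17, 8-cell minus 2-cell). A count minimum of 1 turned Duxf3 at the 8-cell stage (0.000584), and one of 10 turned Sp110 from MERVL-KD 2-cell to 4-cell (-0.0689) and its 8-cell minus 2-cell difference (-0.0292).

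Replicate numbers did not pair the libraries (correlations of deviations -0.016, 0.007 and 0.013). With the replicate block 5 members were lower on adjusted p at the 2-cell stage (Dppa4 missed at 0.0604), the Spz1 difference between 8-cell and 2-cell passed (adjusted p = 0.0283), and the members called numbered 2 at the 8-cell stage, 0 from MERVL-KD 4-cell to 8-cell (AF067061 missed at adjusted p = 0.0577) and 2 for the 8-cell minus 2-cell difference, and that difference of Tcstv3 turned to 0.0417.

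Without 1 library, members called ranged from 1 to 2 at the 2-cell, 0 to 3 at the 4-cell and 1 to 2 at the 8-cell stage, from 0 to 2 for control 4-cell to 8-cell, 0 to 1 for MERVL-KD 4-cell to 8-cell, and 0 to 2 for each difference of effects. At the 4-cell stage Spz1 ranged from -0.00119 to 0.88, Tcstv1 from -0.85 to 1.07, Tcstv3 from -0.31 to 1.53 and AF067061 from -0.26 to 1.39. At the 8-cell stage Duxf3 ranged from -0.44 to 0.40, Dppa4 from -0.11 to 0.0142, Zfp352 from -0.15 to 2.04, Tcstv1 from -0.25 to 0.97, Tcstv3 from -1.64 to 0.0111 and AF067061 from -0.0525 to 0.15. Tcstv3 from control 4-cell to 8-cell ranged from -1.47 to 0.59 and Sp110 from MERVL-KD 2-cell to 4-cell from -0.0352 to 0.17. From MERVL-KD 4-cell to 8-cell Dppa4 ranged from -0.0632 to 0.0395, Zfp352 from -1.82 to 0.35 and Spz1 from -0.54 to 0.30. The 4-cell minus 2-cell difference ranged from -0.15 to 0.61 for Spz1 and from -0.41 to 1.50 for Tcstv1, and the 8-cell minus 2-cell difference from -0.13 to 0.17 for Sp110 and from -0.92 to 0.79 for Tcstv3.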
